A study of Mus musculus with 10 samples.

Results

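The myosin heavy and light chain genes of the mouse heart were examined together with the kinase and the binding protein that act on cardiac myosin. The set holds 10 of the 24888 genes in the deposited table, taken by gene symbol: the heavy chains Myh6, Myh7, Myh7b and Myh10, the light chains Myl2, Myl3, Myl4 and Myl7, the kinase Mylk3 and the thick filament protein Mybpc3. The choice used no measured value of its own, but it was made with earlier results of these data known. Of the 10 genes, 9 were measured well enough for the test, which needed 10 or more scaled reads in 5 or more libraries, and Myl7 was not. Myl4 entered it although 1 library listed it at 0.

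Myosin of the sarcomere is built from heavy chains, which carry the motor that splits ATP and pulls on actin, and from essential and regulatory light chains that stiffen the lever arm. The adult mouse ventricle uses mostly the fast alpha heavy chain, encoded by Myh6, while the slower beta heavy chain, encoded by the neighbouring Myh7, is the main form before birth and is a widely used marker of hypertrophy and failure in rodents. Atria and ventricles carry different light chains, Myl7 and Myl4 in atria and Myl2 and Myl3 in ventricles, so that the light chains also mark the chamber a piece of tissue came from.

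RNA sequencing was performed on heart tissue from 5 SPOP_CKI and 5 Cre_control mice. SPOP is the substrate-binding subunit of a cullin-3 ubiquitin ligase, and the study title names it as a trigger of hypertrophy and heart failure. SPOP_CKI mice overexpress SPOP in the heart through the αMHC-Cre system, and Cre_control mice, titled WT, have the genotype Myh6Cre. Cre is therefore present in both groups and is driven by the promoter of Myh6, a gene of this set, which is active in cardiomyocytes. All mice are labelled male, were 8 to 10 weeks old and belonged to the sham arm. The sources used here do not give the strain background, the chamber sampled or any shared litters. The labels number the libraries as repeats, and each is taken here as a separate heart. The p-values below set the difference between groups against the spread between these numbered libraries, which may be partly technical.

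Values are reads per gene divided by the authors' size factor of the library, called scaled reads here. Depth was 15316293 to 17114869 reads per library, and a count of 3 reads, the floor used for a listed 0, was worth 2.48 to 3.54 scaled reads. Spop stood at 25308 to 40631 scaled reads in SPOP_CKI hearts, against 3078 to 3726 in Cre_control hearts. All 10 cardiomyocyte markers were detected in every library, with a summed level of 337347 to 561925 in SPOP_CKI and 444969 to 556519 in Cre_control. Of these markers 3 were lower (Tnni3, Atp2a2 and Cacna1c, at log2 fold changes of −1.24, −1.10 and −1.04), 1 was higher (Actc1, at 0.97), and their median was −0.54. Over all tested genes 12.3% were lower, 10.0% were higher and the median was −0.11. Library SPOP_CKI 3 stood apart, with 1968 tested genes at 0, against 5 to 61 in the others. The SPOP_CKI libraries also held fewer reads from GC-rich transcripts. The median log2 ratio to the controls of the genes with the most GC minus that of the genes with the least, by quintile, was −2.41 in SPOP_CKI 3, −0.81 to −0.47 in the other SPOP_CKI libraries and −0.20 to 0.27 in Cre_control. Against their male label, SPOP_CKI 1, SPOP_CKI 3 and Cre_control 5 held Xist reads and no reads of the Y-linked genes Ddx3y, Kdm5d, Uty and Eif2s3y.

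Of the 9 tested genes, 2 were higher in SPOP_CKI (Myh7 and Myh10), 3 were lower (Myh6, Myh7b and Myl3), and 4 did not pass (Myl2, Myl4, Mylk3 and Mybpc3). The test was limma on log2(scaled reads + 1), two-sided, with Benjamini-Hochberg adjustment at 0.05 over all 14212 genes tested. In that fit 22.3% of all tested genes changed, 10.0% of them higher and 12.3% lower as shares of the genes tested. The median log2 fold change of the 9 genes was −0.77, beside −0.11 over all tested genes. In bulk heart RNA, fewer cells of a type and less RNA per cell cannot be told apart. The groups did not overlap for 3 members, Myh6, Myh10 and Myl3, and for 21.3% of all tested genes, of which 1 member and 9.01% of tested genes were on the higher side. Where alternatives are named below, the share of all tested genes that passed was 18.1% with each library centred by transcript GC content, 26.8% with quantile normalization, 10.5% with no filter on low values, 37.4% with array weights, 31.0% without SPOP_CKI 3, 12.7% without SPOP_CKI 1 and Cre_control 1, 22.4% with edgeR and 29.3% with DESeq2. Without the 3 libraries with Xist reads, where 31.0% of tested genes passed, the same 5 genes were called, with log2 fold changes of −1.70 for Myh6, 2.69 for Myh7, −1.52 for Myh7b, 0.87 for Myh10 and −1.25 for Myl3 (limma adjusted p = 0.0252, 0.0259, 0.0412, 0.00535 and 0.0180). Without SPOP_CKI 3 these 5 genes and Myl2 were called, with Myh6 at −1.52 and Myh7 at 2.41 (limma adjusted p = 0.0137 and 0.0314).

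**Figure D1:**
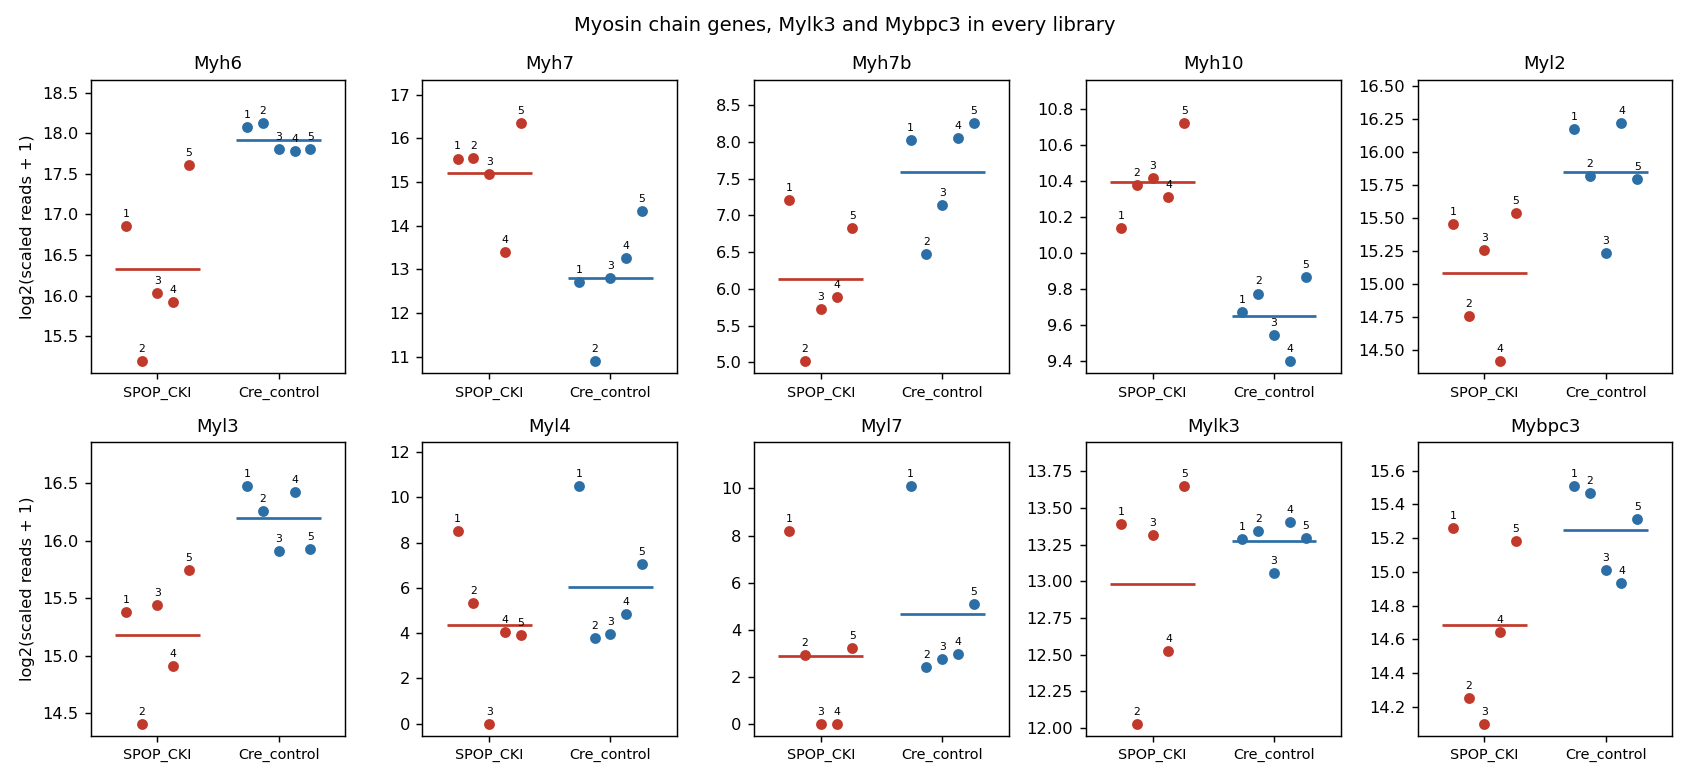
Level of each of the 10 genes in every library, as log2(scaled reads + 1) on a scale of its own for each panel, with SPOP_CKI on the left and Cre_control on the right. Points are libraries with their replicate number, and horizontal lines are means of 5 libraries; the groups do not overlap for Myh6, Myh10 and Myl3.

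Myh6 and Myh7 lie next to each other on chromosome 14, both on the minus strand, at chr14:54941921-54966927 and chr14:54970684-54994626 (mm10). Their main transcripts agree at 91.7% of aligned coding bases, and the proteins of 1938 and 1935 residues at 93.6% of positions. A read can be given to one gene only where the sequences differ. In the GENCODE M21 transcripts, 22.6% of all 50-base windows of the Myh7 transcript were also present in Myh6 transcripts, 11.4% of 100-base windows and 5.51% of 150-base windows. The longest run of identical coding bases was 245 bases. The sources used here give neither the read length nor how reads common to both genes were counted, so the levels of the pair carry that uncertainty.

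The 60-base coding windows that differ most are shown as the extreme example of where a read tells the alpha and beta chains apart. Most other stretches also differ, as the window shares above show. They lie within single exons at chr14:54952277-54952336 for Myh6 and chr14:54980352-54980411 for Myh7 (GENCODE M21, GRCm38), and capitals mark the 24 positions at which they differ.
Myh6 coding window: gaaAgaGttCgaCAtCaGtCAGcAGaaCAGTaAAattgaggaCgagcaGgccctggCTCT
Myh7 coding window: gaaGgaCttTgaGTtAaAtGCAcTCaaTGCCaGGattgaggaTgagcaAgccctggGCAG

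Myh6, the alpha heavy chain, had 119167, 37475, 67074, 62100 and 199995 scaled reads in SPOP_CKI 1 to 5, against 276494, 286166, 228528, 224944 and 229860 in Cre_control 1 to 5. Every SPOP_CKI heart was below every control heart. The SPOP_CKI hearts differed 5.34-fold among themselves, from SPOP_CKI 2 at the bottom to SPOP_CKI 5 at the top, while the controls differed 1.27-fold. The mean was 97162 ± 64722 in SPOP_CKI and 249198 ± 29585 in Cre_control (SD, n = 5 each). Myh6 fell 3.02-fold (log2 fold change −1.59, with SE 0.39 and a limma adjusted p of 0.0145). The Myh6 transcript is GC-rich, at 56.4% against a median of 49.6% for tested genes. When each library was centred by transcript GC content, the log2 fold change was −1.08 and no longer passed (limma adjusted p = 0.0961).

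Myh7, the beta heavy chain, moved the other way. It had 47644, 47971, 37447, 10814 and 83721 scaled reads in SPOP_CKI 1 to 5, against 6685, 1905, 7087, 9815 and 20635 in Cre_control 1 to 5. The groups overlapped in 1 heart each, since SPOP_CKI 4 was below Cre_control 5, and the other 4 SPOP_CKI hearts were above all controls. Myh7 averaged 45519 ± 26170 in SPOP_CKI and 9225 ± 6984 in Cre_control (SD, n = 5 each). The log2 fold change was 2.41 (SE 0.64, limma adjusted p = 0.0207), a 5.31-fold rise. With GC centring it was 2.93 (limma adjusted p = 0.0117). The transcript, at 56.2% GC, is about as GC-rich as that of Myh6. GC centring moved both log2 fold changes upward, that of Myh6 from −1.59 to −1.08. The call ended with no filter on low values (limma adjusted p = 0.0598), with array weights (0.0746) and without the libraries SPOP_CKI 1 and Cre_control 1 (0.0792), at log2 fold changes of 2.41, 2.22 and 2.30.

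Taken as a share within each heart, Myh7 reads made up 28.6%, 56.1%, 35.8%, 14.8% and 29.5% of Myh6 plus Myh7 reads in SPOP_CKI 1 to 5. In Cre_control 1 to 5 the share was 2.36%, 0.661%, 3.01%, 4.18% and 8.24%. The lowest SPOP_CKI share, in heart 4, was above the highest control share, in heart 5, so the groups did not overlap on this measure although they did for Myh7 itself. The median share was 29.5% in SPOP_CKI and 3.01% in Cre_control. Per kilobase of gene length, the medians were 24.6% in SPOP_CKI and 2.36% in Cre_control. Gene length counts all annotated exonic bases, 8616 for Myh7 and 6726 for Myh6. The main transcripts are closer in length, at 6135 and 6113 bases, so the per-kilobase scale can understate the Myh7 share. In SPOP_CKI 2 Myh7 held the larger part in scaled reads, at 56.1%, and 49.98% per kilobase, and in the other 9 hearts Myh6 held the larger part on both scales. These shares are a description with no test, and any miscounting of reads common to both genes acts on them.

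**Figure D2:**
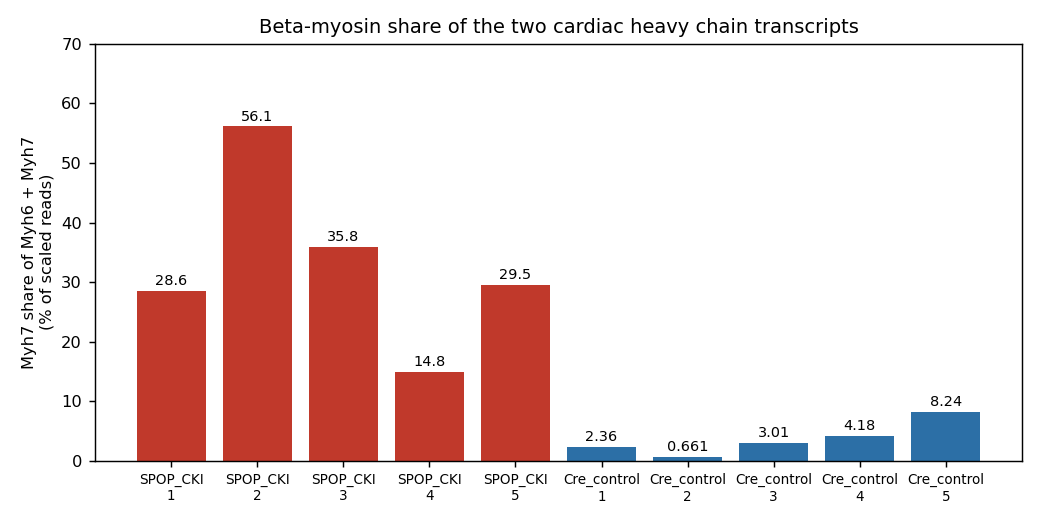
Share of Myh7 in the summed scaled reads of Myh6 and Myh7, in percent, 1 bar per heart, with the SPOP_CKI hearts left of the Cre_control hearts. The SPOP_CKI bars run from 14.8% to 56.1% and the Cre_control bars from 0.661% to 8.24%.

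The gain in Myh7 was smaller in reads than the loss of Myh6. Myh6 plus Myh7 came to 142681 ± 86707 scaled reads in SPOP_CKI and 258424 ± 25666 in Cre_control (SD, n = 5 each), or 0.898% ± 0.407 and 1.47% ± 0.136 of all scaled reads. The summed level was below that of every control in SPOP_CKI 1 to 4, while SPOP_CKI 5, at 283716, lay inside the control range of 234759 to 288071.

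The heavy chain genes also carry microRNAs in their introns, miR-208a in Myh6, miR-208b in Myh7 and miR-499 in Myh7b. The mature sequences are shown because their seeds group the heavy chain genes: capitals mark the seed, bases 2 to 8, which is shared by miR-208a and miR-208b and ends in another base in miR-499 (RefSeq, GRCm38.p6).
mmu-miR-208a-3p: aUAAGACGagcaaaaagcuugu
mmu-miR-208b-3p: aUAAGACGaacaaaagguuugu
mmu-miR-499-5p: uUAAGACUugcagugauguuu

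Mature microRNAs are not captured by poly(A) selection, so their levels were not measured. The rows of the precursor genes hold few reads. Mir208a was at 2.71 in SPOP_CKI 1 and at 0 in the other libraries. Mir208b lay between 0 and 24.4 scaled reads in SPOP_CKI and between 12.7 and 32.2 in Cre_control, and did not pass (log2 fold change −1.85, limma adjusted p = 0.141). Mhrt, a long noncoding RNA transcribed antisense to Myh7 in the mouse, had 65.05, 16.5, 0, 21.8 and 67.3 scaled reads in SPOP_CKI 1 to 5, against 83.8, 85.8, 68.0, 134 and 74.0 in Cre_control 1 to 5. Each SPOP_CKI heart was below each control, narrowly so in SPOP_CKI 5, but the difference did not pass (log2 fold change −2.30, limma adjusted p = 0.112). Without SPOP_CKI 3 it was −1.26 and passed (limma adjusted p = 0.0375). Mhrt shares 484 exonic bases, 5.62% of Myh7, on the opposite strand, and Gm31251 shares 523, or 6.07%. Whether the counting used strand is not stated in the labels, so reads from these stretches cannot be told apart.

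The stretch before a RefSeq transcription start of each gene is shown because the Myh6 promoter drives Cre and the pair moved in opposite directions. The Myh6 stretch lies inside the annotated gene span given above, which on the minus strand begins further upstream, at 54966927. The Myh7 stretch lies outside its gene span. The first 200 of 250 bases before the RefSeq start are printed, positions −250 to −51, at chr14:54966658-54966857 for Myh6 and chr14:54994677-54994876 for Myh7, both on the minus strand (RefSeq, GRCm38.p6). Capitals mark the letters GGAATG, which is CATTCC, the core of the MCAT element, read from the other strand.
Myh6 promoter: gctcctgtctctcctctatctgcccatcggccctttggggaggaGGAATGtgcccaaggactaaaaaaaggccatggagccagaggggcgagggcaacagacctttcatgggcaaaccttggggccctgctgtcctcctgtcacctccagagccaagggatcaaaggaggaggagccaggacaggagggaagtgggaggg
Myh7 promoter: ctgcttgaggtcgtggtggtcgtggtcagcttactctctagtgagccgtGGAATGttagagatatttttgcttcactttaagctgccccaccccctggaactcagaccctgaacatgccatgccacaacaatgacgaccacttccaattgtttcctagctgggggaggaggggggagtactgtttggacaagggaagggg

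CATTCC was found once in each window, beginning at −206 in Myh6 and 5 bases nearer the start in Myh7, and 12.6% of 32851 RefSeq promoter windows of the same length hold it on either strand. GATAA, found in 22.6% of windows, AGGTCA, found in 14.02%, and the MEF2 motif, found in 3.20%, were not present in either on any strand. A later RefSeq start of Myh7 has a window without CATTCC. The letters are not particular to the pair, since windows of Myl3, Myl7, Myh10 and a Mylk3 start also hold them. Windows of Myh7b, Myl2, Myl4, Mybpc3 and another Mylk3 start do not. These matches describe letters and were not tested for binding.

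The other heavy chains of the set are expressed at far lower levels. Myh7b, a sarcomeric heavy chain that hosts miR-499, lies at chr2:155611212-155634307. It had 146, 31.4, 51.7, 58.4 and 112 scaled reads in SPOP_CKI 1 to 5, against 260, 88.0, 141, 265 and 304 in Cre_control 1 to 5. SPOP_CKI 1 and SPOP_CKI 5 were above Cre_control 2, so the groups overlapped. Myh7b fell to 80.0 ± 47.6 in SPOP_CKI, against 212 ± 92.4 in Cre_control (SD, n = 5 each; log2 fold change −1.46, SE 0.46, limma adjusted p = 0.0420). Its transcript has the highest GC content of the set, at 59.2%, and with GC centring the log2 fold change was −0.80 (limma adjusted p = 0.274). The call also ended when any of SPOP_CKI 2 or 4 or Cre_control 1, 3, 4 or 5 was left out, with log2 fold changes of −1.57 to −1.18 and adjusted p of 0.0584 to 0.105, under quantile normalization (−1.43, adjusted p = 0.0510) and without SPOP_CKI 1 and Cre_control 1 together (−1.62, adjusted p = 0.0604).

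Myh10, the heavy chain of non-muscle myosin IIB, is a motor of the cytoskeleton and not of the sarcomere. It had 1127, 1330, 1366, 1269 and 1687 scaled reads in SPOP_CKI 1 to 5, against 813, 874, 744, 674 and 932 in Cre_control 1 to 5. All SPOP_CKI hearts were above all controls. The mean was 1356 ± 207 in SPOP_CKI and 807 ± 103 in Cre_control (SD, n = 5 each), and the rise was 1.67-fold (log2 fold change 0.74, SE 0.15, limma adjusted p = 0.00633). Myh10 kept its direction and its call under all 22 alternatives, with GC centring at 0.98. Of 6 tested markers of activated fibroblasts 4 were higher as well, beside 10.0% of all tested genes, and Cthrc1 was at 0 in some libraries. Their summed level was 4499, 30564, 4532, 43611 and 4027 in SPOP_CKI 1 to 5, against 1975 to 2891 in Cre_control. SPOP_CKI 2 and 4 carried most of it, while SPOP_CKI 5, with the highest Myh10, had the lowest sum of the SPOP_CKI hearts. Of 8 fibroblast markers 1 was higher by limma and 4 by edgeR. Over all tested genes 10.0% were higher by limma, and edgeR called 22.4% in either direction. The fibroblast markers summed to 31494 to 117595 in SPOP_CKI and 29879 to 33528 in Cre_control. The part of these cells in the Myh10 difference was not tested.

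Among the ventricular light chains, Myl3, the essential light chain at chr9:110741861-110769798, had 42552, 21730, 44416, 30696 and 54956 scaled reads in SPOP_CKI 1 to 5. Cre_control 1 to 5 had 91227, 78467, 61437, 87886 and 62276. No SPOP_CKI heart reached the lowest control. Myl3 fell 2.03-fold, to 38870 ± 12881 in SPOP_CKI, against 76259 ± 13958 in Cre_control (SD, n = 5 each; log2 fold change −1.02, SE 0.26, limma adjusted p = 0.0185). Its call ended with GC centring (−0.79, adjusted p = 0.0725), quantile normalization (−0.44, adjusted p = 0.185), without Cre_control 1 or 4 (adjusted p = 0.0538 and 0.0502) and without SPOP_CKI 1 and Cre_control 1 together (adjusted p = 0.0660).

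Myl2, the regulatory light chain and the substrate of the cardiac kinase, had 44770, 27652, 39071, 21865 and 47448 scaled reads in SPOP_CKI 1 to 5, against 73776, 57767, 38557, 76240 and 56775 in Cre_control 1 to 5. Cre_control 3 was the single control inside the SPOP_CKI range. The mean was 36161 ± 11031 in SPOP_CKI and 60623 ± 15222 in Cre_control (SD, n = 5 each), and the difference did not pass (log2 fold change −0.77, 95% confidence interval −1.36 to −0.17, limma adjusted p = 0.0641). It passed with array weights (limma, −1.01, adjusted p = 0.00763), with DESeq2 on recovered reads (−0.74, adjusted p = 0.0209) and without SPOP_CKI 3, SPOP_CKI 5 or Cre_control 3 (limma adjusted p = 0.04999, 0.0429 and 0.0448). Myl2 and Myl3 were the closest pair among the members, with a root-mean-square difference of 0.27 between their log2 profiles over the 10 libraries, each centred on its own mean. The next value for Myl3 with a heavy chain was 0.46, with Myh6. Myh6 and Myh7 differed by 2.28 on that measure.

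The atrial light chains were found in quantity in 1 heart of each group. Myl7, the atrial regulatory light chain at chr11:5896637-5898782, had 292, 6.61, 0, 0 and 8.27 scaled reads in SPOP_CKI 1 to 5, against 1108, 4.29, 5.67, 6.73 and 33.2 in Cre_control 1 to 5. Myl4, the atrial essential light chain at chr11:104550663-104595753, had 364, 38.8, 0, 15.7 and 14.2 scaled reads in SPOP_CKI 1 to 5, against 1464, 12.9, 14.7, 27.9 and 134 in Cre_control 1 to 5. In both groups heart 1 was the highest for both genes, and Cre_control 5 came next among the controls. The groups overlapped for both genes.

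Myl7 was not tested, since it was under 10 scaled reads in 7 of the 10 libraries. Myl4 did not pass (log2 fold change −1.68, SE 1.60, 95% confidence interval −5.19 to 1.83, limma adjusted p = 0.463). Its log2 fold change was −0.59 without SPOP_CKI 3, where it was at 0, and −0.56 without Cre_control 1, against −2.72 without SPOP_CKI 1. Myl7 made up 0.648% of Myl2 plus Myl7 scaled reads in SPOP_CKI 1 and 1.48% in Cre_control 1, and at most 0.0585% in the other 8 hearts. Per kilobase it was 2.11% in SPOP_CKI 1, 4.73% in Cre_control 1 and at most 0.193% in the others.

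The atrial marker genes Sln and Mybphl were also highest in heart 1 of each group, and the other 8 of the 10 atrial markers were not. Sln, which encodes sarcolipin, an atrial inhibitor of the sarcoplasmic calcium pump, had 113 scaled reads in SPOP_CKI 1 and 0 to 5.78 in the other SPOP_CKI hearts. It had 407 in Cre_control 1, 17.1 in Cre_control 5 and 0 to 2.27 in the other controls. Mybphl, an atrial relative of myosin-binding protein C, had 28.0 in SPOP_CKI 1 and 141 in Cre_control 1, and at most 2.15 in any other heart. The root-mean-square difference of log2 profiles over the 10 libraries was 1.15 between Myl7 and Myl4, 1.12 between Myl7 and Sln, and 1.36 between Myl4 and Sln. Of the 10 atrial markers 7 were tested, 1 was higher (Gja5, log2 fold change 0.83, limma adjusted p = 0.00981) and 1 lower (Tbx5, −0.95, adjusted p = 0.0394). The shares of all tested genes were 10.0% higher and 12.3% lower. The summed level was 2999 to 5141 in SPOP_CKI and 3365 to 5163 in Cre_control. Of 6 ventricular markers, 0 passed (limma; also 0 at an unadjusted p under 0.05, and 0 by edgeR and DESeq2). How much atrial tissue each sample held was not given, and its part in the levels of Myl4 and Myl7 was not tested.

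**Figure D3:**
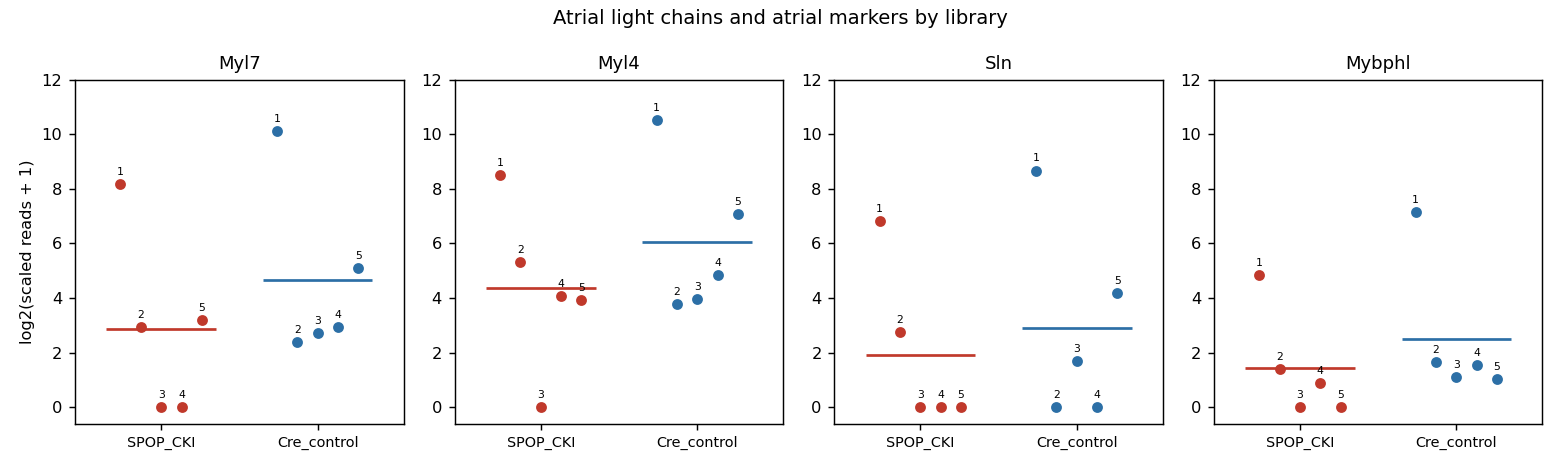
Level of the atrial light chains Myl7 and Myl4 and of the atrial markers Sln and Mybphl in every library, as log2(scaled reads + 1), with SPOP_CKI left of Cre_control. Points carry the replicate number and lines are means of 5 libraries; heart 1 is the highest of its group in all panels, and values at 0 are libraries with no read.

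Mylk3, the cardiac myosin light chain kinase, phosphorylates Myl2. It had 10733, 4180, 10197, 5884 and 12876 scaled reads in SPOP_CKI 1 to 5, against 10010, 10404, 8529, 10840 and 10048 in Cre_control 1 to 5. SPOP_CKI 2 and SPOP_CKI 4 were below all controls and SPOP_CKI 5 was above them, so the SPOP_CKI hearts spread 3.08-fold and the controls 1.27-fold. The difference did not pass (log2 fold change −0.30, 95% confidence interval −0.92 to 0.33, limma adjusted p = 0.468), and without SPOP_CKI 2 it was −0.06.

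Mybpc3, cardiac myosin-binding protein C, links the thick filament to actin and titin and limits cross-bridge formation. It had 39175, 19545, 17550, 25585 and 37147 scaled reads in SPOP_CKI 1 to 5, against 46700, 45408, 32978, 31298 and 40727 in Cre_control 1 to 5. SPOP_CKI 2, 3 and 4 were below all controls and SPOP_CKI 1 and 5 were inside their range. The log2 fold change of −0.56 did not pass (95% confidence interval −1.13 to 0.0070, limma adjusted p = 0.139). It was −0.02 with GC centring, for a transcript of 56.6% GC, and −0.60 with array weights, where it passed (limma adjusted p = 0.0392).

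**Figure D4:**
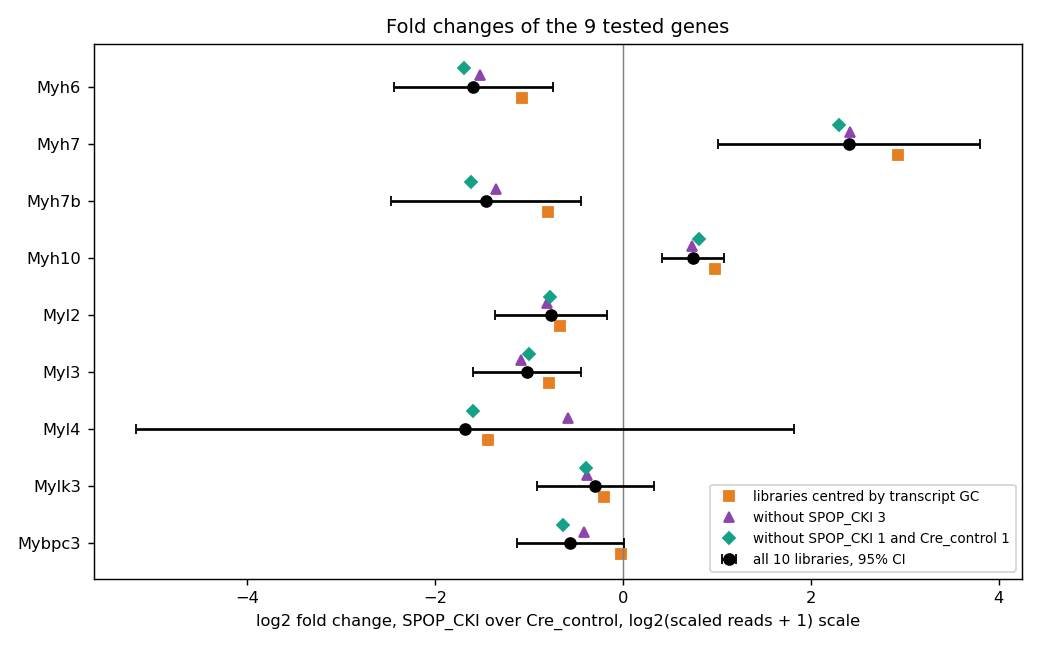
Log2 fold change, SPOP_CKI over Cre_control, of the 9 tested genes on the log2(scaled reads + 1) scale. Black points with bars are the fit of all 10 libraries with the 95% confidence interval. Coloured points are the fits with libraries centred by transcript GC, without SPOP_CKI 3, and without SPOP_CKI 1 and Cre_control 1. GC centring brings Myh6, Myh7b, Myl3 and Mybpc3 closer to 0 and moves Myh7 and Myh10 further from it.

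Levels of different genes were set side by side per kilobase of gene length, which counts all annotated exonic bases. Where the main transcript is shorter, as for Myh7 (6135 against 8616 bases), the level can be understated. On this scale the order in SPOP_CKI was Myl3 at 19017 ± 6302, Myl2 at 18544 ± 5657, Myh6 at 14446 ± 9623, Mybpc3 at 6678 ± 2387 and Myh7 at 5283 ± 3037 scaled reads per kilobase (SD, n = 5). The first 3 differed by less than their spread, as did Mybpc3 and Myh7. The order of Mybpc3 and Myh7 may change with the length used. In Cre_control the order was Myl3 at 37308 ± 6829, Myh6 at 37050 ± 4399, Myl2 at 31089 ± 7806, Mybpc3 at 9470 ± 1690, Mylk3 at 2327 ± 203 and Myh7 at 1071 ± 811 (SD, n = 5). There the first 3 differed by less than the SD of Myl2, while Myh6 and Myl2 differed by more than the SD of Myh6. Mylk3 stood above Myh7 in Cre_control and below it in SPOP_CKI, where it was at 2049 ± 843. Myh10, at 130 ± 19.8 in SPOP_CKI and 77.2 ± 9.80 in Cre_control, and Myh7b, at 12.1 ± 7.18 in SPOP_CKI and 31.9 ± 13.9 in Cre_control, lay far below Myh6, Myh7, Myl2, Myl3 and Mybpc3. Myl7 averaged 104 ± 218 in SPOP_CKI and 392.4 ± 830 in Cre_control, and Myl4 18.7 ± 33.6 in SPOP_CKI and 71.3 ± 137 in Cre_control, averages set by heart 1.

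Other genes were ranked by the same root-mean-square difference over 10 libraries. The ranking took genes outside the set with an assigned symbol and a mean of at least 100. Those most like Myh6 were Acacb (0.21), Dgat2 (0.26) and Lamb3 (0.29). Acacb encodes the acetyl-CoA carboxylase that restrains fatty acid entry into mitochondria, and Dgat2 an enzyme of triglyceride synthesis. Acacb had 1679 to 6550 scaled reads in SPOP_CKI and 8409 to 9187 in Cre_control, with SPOP_CKI 5 the highest and SPOP_CKI 2 the lowest of the SPOP_CKI hearts, as for Myh6. For Myh7 the closest were Igsf9b (0.88), Mum1l1 (0.96) and Slc38a1 (0.98), at larger distances than those of Myh6. Igsf9b had 131 to 516 scaled reads in SPOP_CKI and 34.01 to 77.5 in Cre_control. No gene of that ranking came close to the atrial chains. The nearest to Myl4 were Ahsg (1.82), Ptgir (1.90) and Nab2 (1.97). The nearest to Myl7 were Dbp (2.22), Efnb3 (2.36) and Smim5 (2.36). All were further away than Sln, and further than Myl4 and Myl7 were from each other (1.15). Ahsg, Ptgir and Nab2 were, like Myl4, at 0 in SPOP_CKI 3, the library with 1968 tested genes at 0.

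Other heavy chains were looked at from a list of 10, of which 6 were in the table and 3 were tested. Of these 1 was lower, and 0 were higher by limma, also at an unadjusted p under 0.05, and by edgeR and DESeq2. By limma 12.3% of all tested genes were lower and 10.0% higher. Myh14, the heavy chain of non-muscle myosin IIC, had 784, 733, 292, 578 and 1643 scaled reads in SPOP_CKI 1 to 5, against 3259, 3172, 2666, 3503 and 2066 in Cre_control 1 to 5. The groups did not overlap, and Myh14 fell by 2.06 on the log2 scale (SE 0.37, limma adjusted p = 0.00378), a call it kept under all 22 alternatives. Its transcript has 60.8% GC, and with GC centring its log2 fold change was −1.13 (limma adjusted p = 0.0117). Myh9, the heavy chain of non-muscle myosin IIA, was at 2006 to 7795 scaled reads in SPOP_CKI and 2311 to 3298 in Cre_control and did not pass (log2 fold change 0.45, limma adjusted p = 0.327). It passed with GC centring (0.99, adjusted p = 0.0151) and without the 3 libraries with Xist reads (0.95, adjusted p = 0.0148). Among the non-muscle heavy chains, Myh10 was thus higher and Myh14 lower in the same hearts. Myh3, Myh8 and Myh13, of developing and extraocular muscle, were at 5.23 scaled reads or less in every library.

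Of 7 tested light chains outside the set, 1 was higher and 0 were lower by limma, beside 10.0% and 12.3% of all tested genes. At an unadjusted p under 0.05, 1 was lower by limma, and adjusted 0 were by edgeR and 1 by DESeq2. Myl1, an essential light chain of fast skeletal muscle, had 824, 1069, 896, 1449 and 845 scaled reads in SPOP_CKI 1 to 5, against 296, 495, 289, 321 and 305 in Cre_control 1 to 5. All SPOP_CKI hearts were above all controls, and the log2 fold change was 1.57 (SE 0.21, limma adjusted p = 0.000818). Its call held under all 22 alternatives. Of the 5 tested skeletal muscle markers, Myl1 was the only one that passed; their summed level was 2447 to 9687 in SPOP_CKI and 2986 to 6611 in Cre_control, and Actn3, Atp2a1 and Pvalb were at 0 in some libraries. Myl9, the smooth muscle and non-muscle regulatory chain, was at 322 to 546 scaled reads in SPOP_CKI and 471 to 915 in Cre_control and did not pass (log2 fold change −0.62, limma adjusted p = 0.0689).

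Kinases and phosphatase subunits that act on light chains split in direction. Of 11 tested, 4 were higher and 3 lower, beside 10.0% and 12.3% of all tested genes. Mylk4, a light chain kinase of striated muscle, had 564, 143, 1064, 561 and 1287 scaled reads in SPOP_CKI 1 to 5, against 2595, 2515, 2102, 1912 and 2877 in Cre_control 1 to 5, with no overlap (log2 fold change −2.05, SE 0.49, limma adjusted p = 0.0135). Without SPOP_CKI 1 and Cre_control 1 together Mylk4 did not pass (−2.01, limma adjusted p = 0.0552). Dapk3, a kinase of smooth muscle and non-muscle light chains, fell by 1.30 (limma adjusted p = 0.0137), and Prkd1, a protein kinase D, fell by 1.08 on the log2 scale (adjusted p = 0.0135). Rock2, a kinase that inhibits the myosin phosphatase, rose by 0.90 (limma adjusted p = 0.0098), as did Ppp1r12a, the targeting subunit of that phosphatase, by 0.86 (adjusted p = 0.00416), with Rock1 and Camk2d the other higher genes. With GC centring 1 gene of the list was higher, Rock2 at 0.56 (limma adjusted p = 0.0440), and Dapk3 did not pass (log2 fold change −0.37, limma adjusted p = 0.157). Without Cre_control 1 or 2 the number higher was 2.

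Of 11 tested genes of the thick filament, the M-band and myosin folding, 3 were lower, and 0 were higher by limma, also at an unadjusted p under 0.05, and by edgeR and DESeq2. Over all tested genes 12.3% were lower and 10.0% higher by limma. Obsl1, a cytoskeletal linker, had 445 to 893 scaled reads in SPOP_CKI and 1278 to 1879 in Cre_control (log2 fold change −1.37, SE 0.20, limma adjusted p = 0.00149). Unc45b, the chaperone that folds the myosin head, was at 996 to 1924 in SPOP_CKI and 2375 to 2659 in Cre_control (−0.77, SE 0.19, limma adjusted p = 0.0140). The median log2 fold change of the 11 was −0.77, beside −0.11 over all tested genes. Titin, Ttn, did not pass (−0.12, limma adjusted p = 0.758). With GC centring 0 of the 11 were lower, with Obsl1 at −0.44 and Unc45b at −0.29, and without SPOP_CKI 5 the number was 5.

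Among 19 regulators of myosin gene expression, 2 were higher and 3 lower, close to the shares of all tested genes, at 10.0% and 12.3%. Hdac5, a class II histone deacetylase that represses Mef2 factors, had 869, 658, 134, 652 and 1384 scaled reads in SPOP_CKI 1 to 5, against 2181, 2311, 2180, 2690 and 1957 in Cre_control 1 to 5. The groups did not overlap (log2 fold change −1.94, SE 0.49, limma adjusted p = 0.0176). Hdac5 passed at −1.41 without SPOP_CKI 3 and at −1.01 with GC centring. Mef2d, a transcription factor of muscle genes, fell by 1.03 (limma adjusted p = 0.0161), and Gata6, a cardiac zinc finger factor, fell by 0.76 on the log2 scale (adjusted p = 0.0130). Med13, the Mediator subunit that is a known target of miR-208a in mice, rose by 0.66 (limma adjusted p = 0.0347), and Purb, a single-stranded DNA-binding repressor of Myh6 in rodents, rose by 0.58 (adjusted p = 0.0265). Thra, the thyroid hormone receptor that activates Myh6, was at 352 to 1602 scaled reads in SPOP_CKI and 1405 to 2395 in Cre_control and did not pass (−0.88, limma adjusted p = 0.0982). The Gata6 and Med13 calls ended with GC centring (−0.28 and 0.24). Med13 did not pass in 8 of 22 alternatives, among them those without SPOP_CKI 5 or Cre_control 1, 2, 3 or 4 (limma adjusted p = 0.0501 to 0.0886). Mef2d passed at −0.55 with GC centring, and did not pass without SPOP_CKI 1 and Cre_control 1 together (limma adjusted p = 0.0508). None of the 19 was higher without Cre_control 1, without Cre_control 4 or with no filter on low values.

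**Figure D5:**
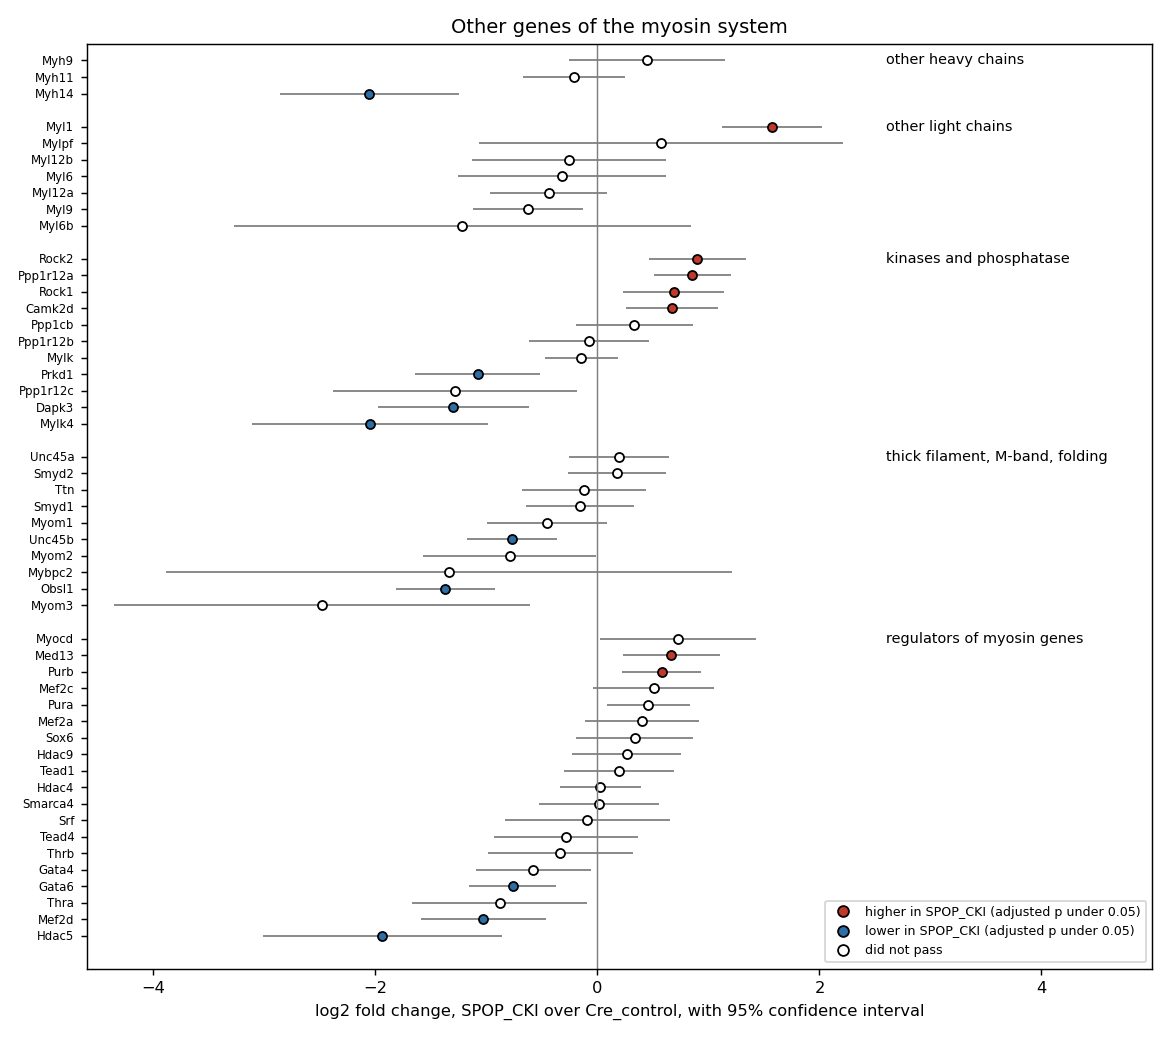
Log2 fold change, SPOP_CKI over Cre_control, with 95% confidence interval, of genes tested from the other lists of the myosin system, grouped by list. Red points passed the test on the higher side, blue points on the lower side, and open points did not pass; Myh14, Mylk4 and Hdac5 are the lowest called genes and Myl1 the highest.

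In the authors' deposited table, made with another test, 6 of the 10 genes have an adjusted p under 0.05, as do 16.2% of all its genes. These are the 5 genes called here and Myl2, at a log2 fold change of −0.75 and an adjusted p of 0.0354 in the authors' deposited table. Among these genes, the largest change with a p-value in the authors' deposited table is that of Myh7, at 2.30 (adjusted p = 0.000296), followed in the opposite direction by Myh7b at −1.41 and Myh6 at −1.36. Myl4 and Myl7 have no p-value in the authors' deposited table and are listed there with an adjusted p of 1.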

How the data were processed

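Poly(A) RNA of 10 hearts was sequenced. The submitters' processing notes name featureCounts 1.5.0-p3, DESeq2 1.20.0 and the build mm10. The authors deposited per gene a scaled read signal (reads divided by a size factor), a log2 fold change and raw and adjusted p-values. Of the deposited signal values, 100% became whole counts at a tolerance of 0.001 when divided by the value of 1 read. Scaled values are not counts, so limma 3.58.1 (intensity trend, robust variances, R 4.3.3) was run on log2(value + 1), after being tested on simulated data. It called 3168 of 14212 genes. On recovered reads edgeR 4.0.16 called 3177 and DESeq2 1.42.0 called 4141.

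The members and the gene lists were chosen with earlier results of these data known. From each list, up to 4 called genes with the largest change were named, or the 2 with the smallest p where under 2 passed; 1 gene that this takes is not reported here. Ppp1r12a, Rock1, Camk2d, Purb, Ttn, Thra, Tnni3, Atp2a2, Cacna1c, Actc1, Myh3, Myh8, Myh13, Gja5 and Tbx5 were named after their values were seen. Alternatives were other scalings, filters, pseudocounts (0.5 and 8), array weights, a replicate block, centring in 20 GC bins, libraries left out, edgeR and DESeq2. Of gene identifiers, 99.9% were found in GENCODE M21. Libraries of a group all differed by more than sampling noise (chi-square over its degrees of freedom at least 12.7).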

Additional observations from a re-analysis of the deposited data

Results flagged for a closer look

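In 26 sets of 5 hearts (10 genes and 3 shares in 2 groups), 8 held a heart far from the other 4. For normally distributed values the rule would flag about 1 in 20 sets. The values of Myl4 and Myl7 are skewed and partly near the floor, so that rate need not hold for them. All 8 concern the atrial light chains and heart 1. SPOP_CKI 1 held 364 scaled reads of Myl4 and Cre_control 1 held 1464. SPOP_CKI 1 held 292 scaled reads of Myl7 and Cre_control 1 held 1108. The share of Myl7 in Myl2 plus Myl7 was 0.648% in SPOP_CKI 1 and 1.48% in Cre_control 1. The share of Myl4 in Myl3 plus Myl4 was 0.848% in SPOP_CKI 1 and 1.58% in Cre_control 1. The shares rest on the same reads as the levels, so these are not 8 separate events.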

How the results depend on the processing

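Myh10 kept its call under all 22 alternatives, and no called result changed direction in any alternative run. GC centring ended the calls of Myh6 (−1.08), Myh7b (−0.80) and Myl3 (−0.79), leaving 0 members lower, 1 other heavy chain and 1 kinase or phosphatase gene higher, and 0 thick filament genes lower. Quantile normalization ended those of Myh7b (−1.43) and Myl3 (−0.44), with 1 member lower, while all genes called numbered 1876 higher and 1935 lower. With no filter Myh7 (2.41) did not pass, 1 member was higher and 0 regulators were, beside 1084 of all genes higher and 1530 lower. Array weights gave Myh7 2.22 without a call, Myl2 −1.01 and Mybpc3 −0.60 with one, 1 member higher and 5 lower, 6 thick filament genes and 6 regulators lower, and 2429 of all genes higher and 2891 lower. DESeq2 called Myl2 (−0.74) and 1 other light chain lower. Without SPOP_CKI 1 and Cre_control 1, chosen after the data were seen, Myh7 (2.30), Myh7b (−1.62) and Myl3 (−1.005) did not pass, leaving 1 member higher, 1 lower, 2 kinase or phosphatase genes and 0 regulators higher, and 770 of all genes higher and 975 lower. Without the 3 libraries with Xist reads, 1 other heavy chain was higher and 1 other light chain lower, and no member's call changed. With each heart left out in turn, members lower numbered 1 to 4 (1 without Cre_control 1 or 4), other light chains lower 0 to 1, kinase or phosphatase genes higher 2 to 4, thick filament genes lower 3 to 5, regulators higher 0 to 3, all genes higher 891 to 1930 and all genes lower 1034 to 2451. Log2 fold changes then ranged from −1.74 to −1.18 for Myh7b, −0.92 to −0.60 for Myl2 and −1.17 to −0.83 for Myl3. Beyond the construction of each alternative, the cause was not tested.

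Deviations of hearts with the same number had weak correlations, all positive (0.0265 to 0.159). Hearts with different numbers were not compared, so whether the numbers pair the hearts cannot be told. With a replicate block 1 other light chain, Myl9 (−0.62), was lower, and the calls of the members did not change.

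Low counts limit Myl7, Myl4, Mir208a and Mir208b, where single libraries are at 0 to 3 reads. For Myl4 that library is SPOP_CKI 3, which had 1968 tested genes at 0. Sequence common to Myh6 and Myh7 limits the levels of both.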
